A study of Mus musculus with 3 samples.

Results

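Tnfaip2, Ahnak and Fchsd2 are 3 protein-coding genes among the most abundant RNAs of the chromatin fraction of stimulated mouse macrophages. They were chosen by gene symbol, as top coding genes by mean TPM (a transcript level scaled by length and by the library total), and are 3 of the 10520 nuclear protein-coding genes whose expected counts averaged 10 or more (the count minimum), out of 55536 annotated genes. The cells were C57BL/6J macrophages grown from bone marrow and given lipid A, the TLR4-activating part of bacterial lipopolysaccharide, at 100 ng/ml for 90 minutes, in 1 group of 3 biological replicates; no unstimulated cells were analysed here, so no value below is a change caused by lipid A. Total RNA of the chromatin fraction was sequenced after ribosomal RNA was depleted, from 1 µg, 250 ng and 500 ng of RNA in replicates 1, 2 and 3, so the amount of RNA and the replicate cannot be told apart. All 3 libraries carry the same donor label, and the spread between them may be partly technical. The levels of the 3 genes chose them, so these levels are described here without a test.

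RNA that stays with chromatin holds transcripts still being made, transcripts not yet spliced or released, and RNAs that remain in the nucleus. Tnfaip2 (M-Sec) is a gene induced by tumour necrosis factor and by NF-κB whose protein resembles a subunit of the exocyst, the complex that tethers secretory vesicles to the plasma membrane, and takes part in forming tunnelling nanotubes in macrophages. Ahnak encodes a giant scaffold protein at the inner face of the plasma membrane that binds S100A10 and annexin A2 and affects calcium channels. Fchsd2 encodes an F-BAR protein, which binds curved membrane, with SH3 domains that recruit regulators of actin assembly during clathrin-mediated endocytosis.

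Depth was 11277198, 24965749 and 19794886 expected counts in replicates 1, 2 and 3, and protein-coding genes held 7715311, 10036048 and 9964310 of them. Each library was quantified by the authors both from an alignment to the transcriptome (alignment-based, used unless another is named) and from the reads without an alignment file (alignment-free). The share of protein-coding genes in TPM was 23.4%, 14.8% and 19.1%, so the same TPM stands for a different share of the coding RNA in each library. Of 10 macrophage markers, 10 were detected over the count minimum. By the test given below, 9 were called above the typical coding gene, beside 21.3% of all genes tested. Cybb had 284.6 and Adgre1 221.1 TPM on average, and Itgam, at 3.02 TPM (level -0.49), was not called. With a count minimum of 100, 5 were called above and 1 below, and by alignment-free TPM 6 were called above. None of 5 neutrophil markers passed the minimum, and 1 of 5 T and B cell markers did (Lck, 1.14 TPM). Of 4 stromal and endothelial markers that passed, 3 were called below, beside 21.3% of all genes.

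Tnfaip2 had rank 3 among the coding genes by mean TPM. It had 1819, 1436 and 1816 TPM in replicates 1, 2 and 3, or 1690 ± 220.2 TPM (SD, n = 3). Its counts were 40237, 100187 and 99718, which made 0.523%, 1.00% and 1.00% of all coding counts. Replicate 1 was the lowest of the 3 libraries by this share, while by TPM it was level with replicate 3. Relative to the median coding gene of the same library, which lay at 5.5, 3.7 and 4.92 TPM, Tnfaip2 stood 8.13, 8.26 and 8.26 log2 units higher, a range narrower than that of Ahnak or Fchsd2.

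Ahnak had 629.9, 805.5 and 830.6 TPM, or 755.3 ± 109.3 TPM, and had rank 9 by mean TPM. By expected counts it was the first of all coding genes in each library, with 138287, 372549 and 297152 counts. These made 1.80%, 3.72% and 2.99% of all coding counts. Replicate 1 was the lowest of the 3 by TPM and by this share. Its level over the median coding gene was 6.60, 7.42 and 7.13 log2 units.

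Fchsd2 had 1232, 387.8 and 712.1 TPM, or 777.3 ± 425.9 TPM, with 35018, 20810 and 28734 counts. Those counts were 0.455%, 0.208% and 0.289% of all coding counts. Replicate 1 was the highest library and replicate 2 the lowest in TPM, counts and share of counts, whereas Ahnak was lowest in replicate 1. Its level was 7.57, 6.37 and 6.91 log2 units over the median coding gene. Fchsd2 had rank 8 and Ahnak rank 9 by mean TPM, but their ranges overlapped: Fchsd2 was the higher in replicate 1 and Ahnak in replicates 2 and 3.

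**Figure D1:**
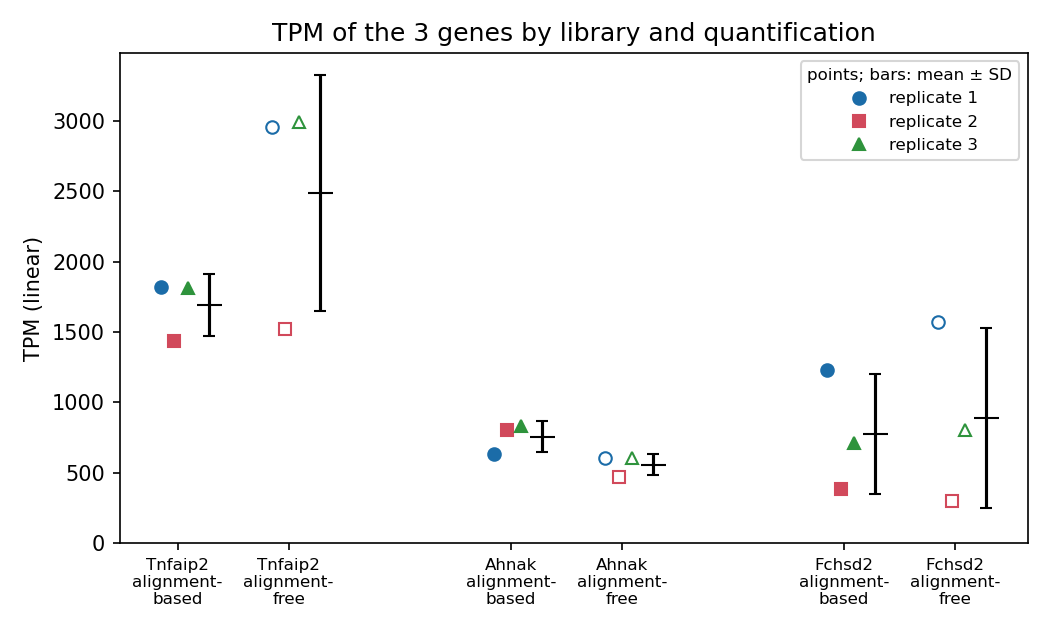
TPM of Tnfaip2, Ahnak and Fchsd2 on a linear axis, with 1 point for each library, filled for the alignment-based and open for the alignment-free quantification, and bars for the mean ± SD of 3 libraries. Tnfaip2 was the highest of the 3 genes in every library, and Fchsd2 lay between 387.8 and 1232 TPM in the alignment-based table.

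The genes next to the 3 in the order of mean TPM are given for comparison. The members had ranks 3, 8 and 9, so no single TPM cutoff parted them from these genes. Lilr4b, a leukocyte immunoglobulin-like receptor, lay directly above Tnfaip2 with 2443, 1073 and 1583 TPM. Malt1, a protease and scaffold of NF-κB signalling, lay directly below Tnfaip2 with 1545, 520.1 and 754.3 TPM. Tnip3, which binds the NF-κB inhibitor A20, lay directly above Fchsd2 with 1653, 240.1 and 629.5 TPM. Ikbke, a kinase of the interferon and NF-κB pathways, lay directly below Ahnak with 789.1, 667.8 and 792.9 TPM. The range of each of the 3 genes over the libraries overlapped that of its neighbours.

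By the root mean square of the difference in level over the 3 libraries, Lilr4b (0.36 log2 units) and Lilrb4a (0.50) were the coding genes most like Tnfaip2. Their order over the libraries differed from it: both were highest in replicate 1, at levels 8.55 and 8.86, where Tnfaip2 was lowest, at 8.13. The nearest to Ahnak were Tcirg1, a subunit of the vacuolar proton pump, at 0.17 and Ikbke at 0.25. Tcirg1 had 520.0, 872.4 and 846.5 TPM, with replicate 1 the lowest as in Ahnak. The nearest to Fchsd2 were Zeb2, a zinc finger transcription factor, at 0.27 and Parp14, an ADP-ribosyltransferase of interferon-treated macrophages, at 0.28. Zeb2 had 1444, 498.0 and 621.2 TPM and Parp14 had 963.5, 369.7 and 566.4 TPM, and both were highest in replicate 1 and lowest in replicate 2, as Fchsd2 was. The measure uses 3 values for each gene and is a description.

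Lengths differ greatly among the 3 genes, so counts and TPM order them differently. The Ahnak locus (ENSMUSG00000069833.13) lies at chr19:8989284-9076914 on the plus strand of GRCm38 and spans 87631 bases. The Tnfaip2 locus (ENSMUSG00000021281.15) lies at chr12:111442469-111455018 on the plus strand and spans 12550 bases, and the Fchsd2 locus (ENSMUSG00000030691.15) at chr7:101092863-101284405 on the plus strand spans 191543 bases. The mean transcript length that the authors' quantification weighted by isoform was 15861, 17174 and 17104 bases for Ahnak, 1787, 2811 and 2831 bases for Tnfaip2 and 2237, 2222 and 2145 bases for Fchsd2. Ahnak had 3.44, 3.72 and 2.98 times the counts of Tnfaip2 in replicates 1, 2 and 3, but only 0.346, 0.561 and 0.458 times its TPM. Ahnak had 3.95, 17.9 and 10.3 times the counts of Fchsd2, and 0.511, 2.08 and 1.17 times its TPM.

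When counts were divided by the effective length of the longest coding isoform in place of the weighted length, Tnfaip2 stayed at rank 3, Ahnak came to rank 5 and Fchsd2 to rank 20 of the 10520 coding genes. This measure takes no account of which isoform a read was given to. In replicate 1 it put Fchsd2, at rank 11, just above Ahnak, at rank 12. In replicate 2 it put Ahnak at rank 5 and Fchsd2 at rank 40.

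**Figure D2:**
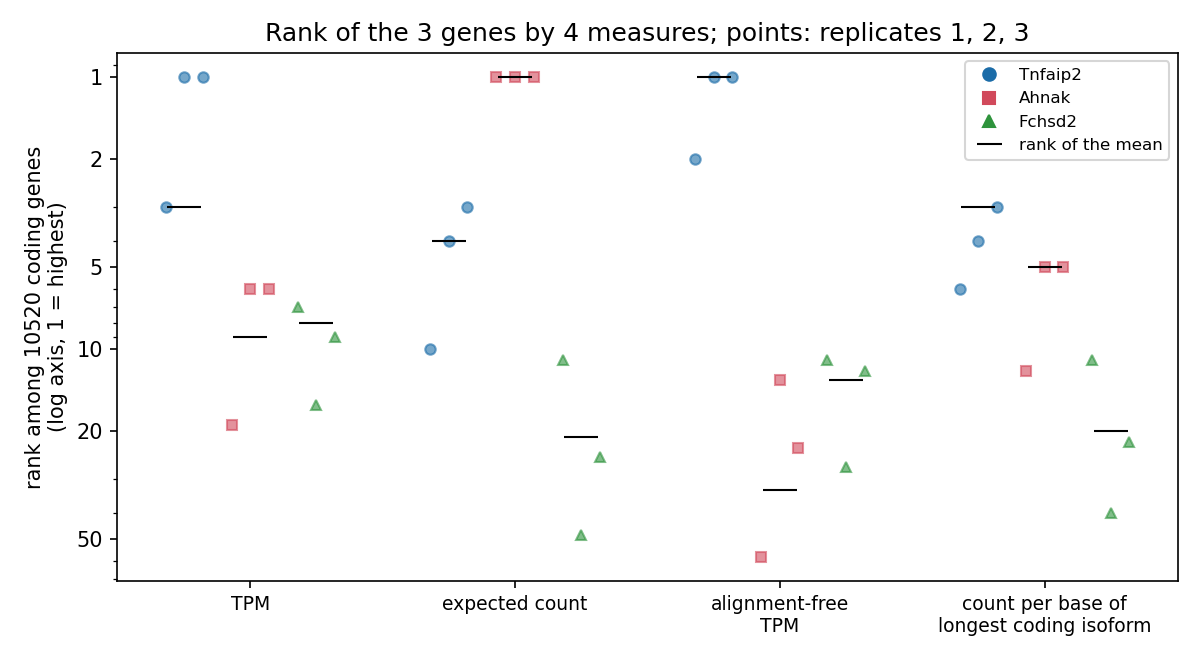
Rank of the 3 genes among 10520 coding genes (log axis, 1 is the highest) by TPM, expected count, alignment-free TPM and count per base of the longest coding isoform, with 1 point for each library and a bar for the rank of the mean. Ahnak was first by count in every library and between rank 13 and rank 58 by alignment-free TPM.

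Ahnak has the simplest set of isoforms of the 3 genes. Of its 5 annotated isoforms, the 18100-base Ahnak-202 took 85.9%, 94.2% and 93.7% of the gene's TPM in replicates 1, 2 and 3, and 98.2%, 99.3% and 99.3% of its counts. Ahnak-203, a coding isoform of 2200 bases, took 13.9%, 5.73% and 6.12% of TPM but 1.76%, 0.658% and 0.710% of counts. Ahnak-205, which the annotation types as a target of nonsense-mediated decay, was listed at 0 in the alignment-based table of every library. Ahnak-203 begins with an exon of its own of 1156 bases inside intron 1 of Ahnak-202. No Ahnak isoform is annotated as a retained intron, so the share of such isoforms, given below for Tnfaip2 and Fchsd2, has no value for Ahnak.

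The last exon of Ahnak-202 starts at position 9001699 of chromosome 19 and holds 17498 bases, or 96.7% of the transcript, of which 16623 bases are coding. This exon is built of repeats. When its coding sequence was set against itself at every shift from 30 to 1499 bases, identity was highest at a shift of 384 bases, where 46.7% of positions were the same, against a median of 24.8% over all shifts. Identity at 762 bases was 38.6% and at 1146 bases 36.0%. The 4 windows of 60 bases shown here lie 384 bases apart, at the place in the exon where 4 successive windows shared the most bases; capitals mark the 53 positions that are the same in all 4. They are shown because nearly all Ahnak counts belong to the isoform that this exon fills.
Ahnak repeat 1 (chr19:9011114-9011173): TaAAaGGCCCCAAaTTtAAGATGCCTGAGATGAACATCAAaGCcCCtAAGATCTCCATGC
Ahnak repeat 2 (chr19:9011498-9011557): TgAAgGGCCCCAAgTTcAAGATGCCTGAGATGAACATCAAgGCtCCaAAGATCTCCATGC
Ahnak repeat 3 (chr19:9011882-9011941): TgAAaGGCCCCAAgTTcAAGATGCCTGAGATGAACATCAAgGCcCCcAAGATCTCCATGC
Ahnak repeat 4 (chr19:9012266-9012325): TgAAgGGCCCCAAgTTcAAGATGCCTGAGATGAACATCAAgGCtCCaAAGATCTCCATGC

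Most Tnfaip2 counts were given to 2 annotated isoforms of similar length, 1 fully spliced and 1 intron-retaining. Only 17.0% of the bases of the second, Tnfaip2-207, lie outside the exons of the first, Tnfaip2-201, so the split between them is an estimate. Tnfaip2-201, the coding isoform of 3762 bases, had 418.7, 484.0 and 759.9 TPM and took 51.8%, 46.3% and 56.9% of the gene's counts in replicates 1, 2 and 3. Tnfaip2-207, of 3889 bases, is annotated as a retained intron; it keeps intron 5 whole and part of intron 6, and had 286.8, 381.0 and 450.1 TPM. It took 36.8%, 37.7% and 34.9% of the counts (SD 1.43 points, against 5.32 points for Tnfaip2-201). The coding isoform Tnfaip2-202, of 3284 bases, took 1.69%, 11.6% and 4.24% of the counts, with replicate 2 the highest.

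Of the bases of Tnfaip2-207 outside the exons of Tnfaip2-201, 169 are the whole of intron 5 and 491 lie in intron 6. Intron 5 is shown because it is the one kept whole; Tnfaip2-202 also holds its last 51 bases, where its exon starts earlier. It is shown with 15 bases of exon on each side at chr12:111448355-111448553 (GRCm38, plus strand), with the intron in capitals, followed by the same 15 exon bases joined in Tnfaip2-201.
Tnfaip2-207, intron 5 kept: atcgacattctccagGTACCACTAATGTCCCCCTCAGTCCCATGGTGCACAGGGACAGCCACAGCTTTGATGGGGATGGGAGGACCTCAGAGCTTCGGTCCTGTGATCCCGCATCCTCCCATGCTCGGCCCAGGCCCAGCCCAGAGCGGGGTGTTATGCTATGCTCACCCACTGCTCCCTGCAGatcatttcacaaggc
Tnfaip2-201, intron 5 removed: atcgacattctccagatcatttcacaaggc

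In TPM, the largest difference between the libraries in Tnfaip2 lay in a 398-base coding isoform, Tnfaip2-205. It had 797.8, 25.84 and 161.1 TPM in replicates 1, 2 and 3, which was 43.9%, 1.80% and 8.87% of the gene's TPM. In counts the same isoform had 2128, 104 and 554, or 5.29%, 0.104% and 0.555%. Replicate 1 was far above the other libraries on both scales. Tnfaip2-205 begins with an exon of its own of 38 bases at chr12:111444324-111444361 and otherwise shares 355 bases of exon 2 and 5 bases of exon 3 of Tnfaip2-201. Without Tnfaip2-205 the gene would sum to 1021, 1410 and 1654 TPM, so replicate 1 becomes the lowest library, as it is by counts. The mean length of the gene, 1787 bases in replicate 1 against 2811 and 2831 bases in replicates 2 and 3, moved with this share. The reason for the reads given to Tnfaip2-205 in replicate 1 was not tested.

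Retained-intron isoforms together took 29.8%, 50.7% and 42.5% of Tnfaip2 TPM and 40.5%, 41.2% and 37.7% of its counts. Over 8140 coding genes with at least 2 isoforms the median gene had 32.1% of TPM and 14.4% of counts in such isoforms; over the 5719 genes with an annotated one it had 45.7% of TPM and 29.8% of counts. Tnfaip2 lay at percentile 59.5 of the 8140 genes by TPM and at percentile 72.9 by counts. In the alignment-free table its share averaged 27.1% of TPM, at percentile 46.9 and below the median of 30.1%. Its share of counts there averaged 44.8%, at percentile 74.8. As the 8140 include genes with no annotated retained intron, these percentiles are raised.

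**Figure D3:**
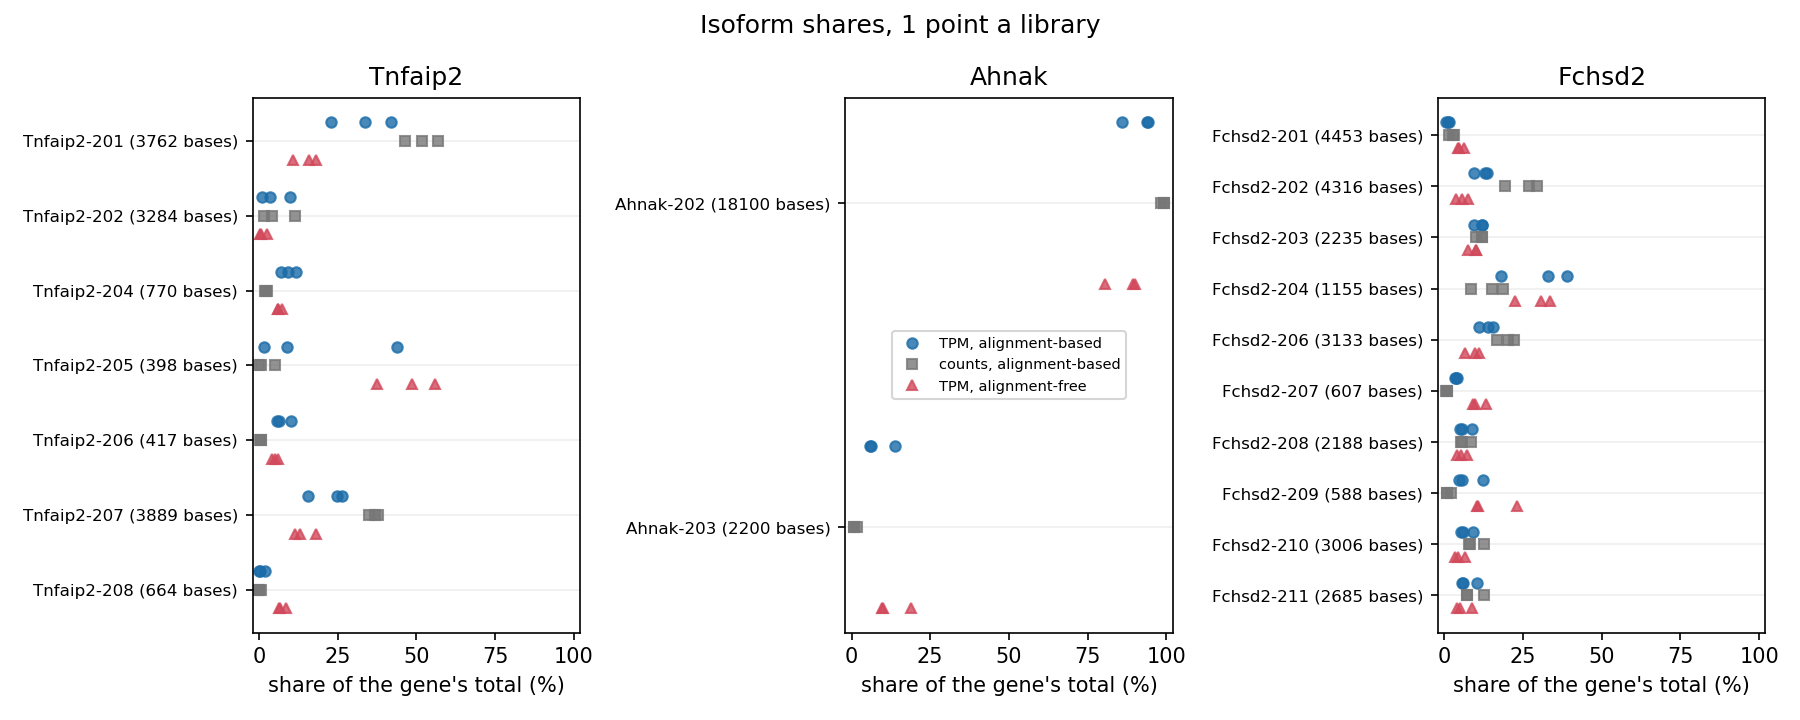
Share of each gene's total held by the isoforms with a mean share of at least 5%, with 1 point for each library: circles for TPM and squares for counts in the alignment-based table, and triangles for TPM in the alignment-free table. Tnfaip2-205 lay between 1.80% and 43.9% of alignment-based TPM and between 37.5% and 55.9% of alignment-free TPM, and Ahnak-202 held over 80% by every measure.

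Fchsd2 RNA was mostly given to isoforms that are not annotated as coding. Coding isoforms took 22.4%, 19.3% and 20.7% of its TPM in replicates 1, 2 and 3, at percentile 11.9 of the 8140 genes, whose median was 51.5%. In the alignment-free table the coding share averaged 25.4 ± 7.02%, at percentile 25.6. Retained-intron isoforms took 59.4%, 47.5% and 40.2% of TPM and 68.7%, 54.2% and 47.7% of counts. Replicate 1 was the highest by both, as it was in the gene's TPM. By counts the mean retained share of 56.9 ± 10.7% lay at percentile 84.6 of the 8140 genes, and by TPM the mean of 49.0 ± 9.70% lay at percentile 68.9. The 8140 include genes with no annotated retained intron, which raises these percentiles. Over the 5719 genes with one, the median was 29.8% of counts and 45.7% of TPM, the latter close to Fchsd2.

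The isoform with the most Fchsd2 TPM in every library was Fchsd2-204, a processed transcript of 1155 bases that ends in intron 8. It had 221.9, 127.9 and 277.8 TPM, or 18.0%, 33.0% and 39.0% of the gene. The near full-length coding isoforms Fchsd2-201 (4453 bases) and Fchsd2-202 (4316 bases) had 8.09, 5.11 and 10.3 TPM and 116.9, 50.8 and 97.5 TPM. Exon 11 of Fchsd2-201, of 72 bases at chr7:101246302-101246373, is absent from Fchsd2-202, and every base of Fchsd2-202 lies within the exons of Fchsd2-201. Replicate 3 was the highest library for Fchsd2-204 and Fchsd2-201, and replicate 1 for Fchsd2-202. This order depended on the quantification. In the alignment-free table Fchsd2-204 had 353.4, 100.5 and 247.6 TPM and Fchsd2-201 had 97.7, 12.7 and 37.1 TPM, with replicate 1 the highest for both.

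The Fchsd2 locus holds 6 retained-intron isoforms, which reach into introns from intron 3 to intron 14. Fchsd2-203 and Fchsd2-206 begin within the first exon and run into introns 3 and 8; they had 147.0, 46.7 and 68.1 TPM and 189.3, 53.6 and 78.2 TPM in replicates 1, 2 and 3. Fchsd2-208, Fchsd2-210 and Fchsd2-211 are single exons that begin 81.5, 142.1 and 150.9 kb from the start of Fchsd2-201, and 93.9%, 96.5% and 96.1% of their bases lie outside the exons of Fchsd2-201. Fchsd2-208 had 106.9, 22.2 and 36.6 TPM, Fchsd2-210 had 112.9, 22.8 and 38.7 TPM, and Fchsd2-211 had 128.8, 23.0 and 40.1 TPM. These 3 mostly intronic stretches had close to the same TPM as each other within each library, and replicate 1 was the highest library for all of them. Fchsd2-207, of 607 bases, had 47.0, 16.1 and 24.5 TPM.

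Replicate 1 exceeded replicate 2 by 4.82, 4.96 and 5.59 times in Fchsd2-208, Fchsd2-210 and Fchsd2-211. It did so by 3.15, 3.54 and 2.925 times in Fchsd2-203, Fchsd2-206 and Fchsd2-207. In the coding isoforms Fchsd2-202 and Fchsd2-201 and in Fchsd2-204 the ratio was 2.30, 1.58 and 1.74. The ratio was 8.01 in the short coding isoform Fchsd2-209, of 588 bases, which starts 15.9 kb upstream of Fchsd2-201. That isoform had 150.4, 18.8 and 39.6 TPM, but 163.6, 32.0 and 185.3 TPM in the alignment-free table. The median coding gene was also higher in replicate 1, at 5.5 TPM against 3.7 TPM in replicate 2. In Tnfaip2 the retained-intron isoform ran the other way, at 0.753 times in Tnfaip2-207, beside 0.865 times in Tnfaip2-201. Replicate 1 started from the most RNA and replicate 2 from the least; the part of the amount of RNA in these ratios was not tested.

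The start of each retained stretch is what makes a read unspliced rather than spliced. The last 15 bases of the exon are shown in lower case with the first 45 bases of the kept intron in capitals (GRCm38, chromosome 7, plus strand), each followed by the same exon end joined to the next exon in Fchsd2-201; all of these exon ends are coding.
Fchsd2-203, intron 3 kept, chr7:101139182-101139241: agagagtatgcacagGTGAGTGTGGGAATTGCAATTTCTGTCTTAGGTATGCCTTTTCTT
Fchsd2-201, intron 3 removed: agagagtatgcacagggtatccagaagttg
Fchsd2-208, intron 6 kept, chr7:101191786-101191845: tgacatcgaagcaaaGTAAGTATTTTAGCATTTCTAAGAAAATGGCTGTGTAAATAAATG
Fchsd2-201, intron 6 removed: tgacatcgaagcaaagtctaaacttagtct
Fchsd2-206, intron 8 kept, chr7:101198595-101198654: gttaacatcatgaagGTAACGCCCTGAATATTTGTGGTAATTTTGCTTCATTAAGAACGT
Fchsd2-201, intron 8 removed: gttaacatcatgaaggctcttgatggaaac
Fchsd2-210, intron 13 kept, chr7:101253620-101253679: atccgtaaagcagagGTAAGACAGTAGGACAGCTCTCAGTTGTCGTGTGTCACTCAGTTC
Fchsd2-201, intron 13 removed: atccgtaaagcagagatcattaaattgaaa
Fchsd2-211, intron 14 kept, chr7:101259759-101259818: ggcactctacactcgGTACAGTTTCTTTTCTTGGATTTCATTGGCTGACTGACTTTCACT
Fchsd2-201, intron 14 removed: ggcactctacactcgcttaatgcagatgct

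Each kept intron opens with GT, the usual first bases of an intron, as intron 5 of Tnfaip2 does. The whole introns 3, 6, 8, 13 and 14 of Fchsd2 are 37947, 5079, 35262, 5977 and 11796 bases long, and the isoforms cover only parts of them. Most intronic bases of Fchsd2 are in no annotated isoform, so reads from them enter no value given here.

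**Figure D4:**
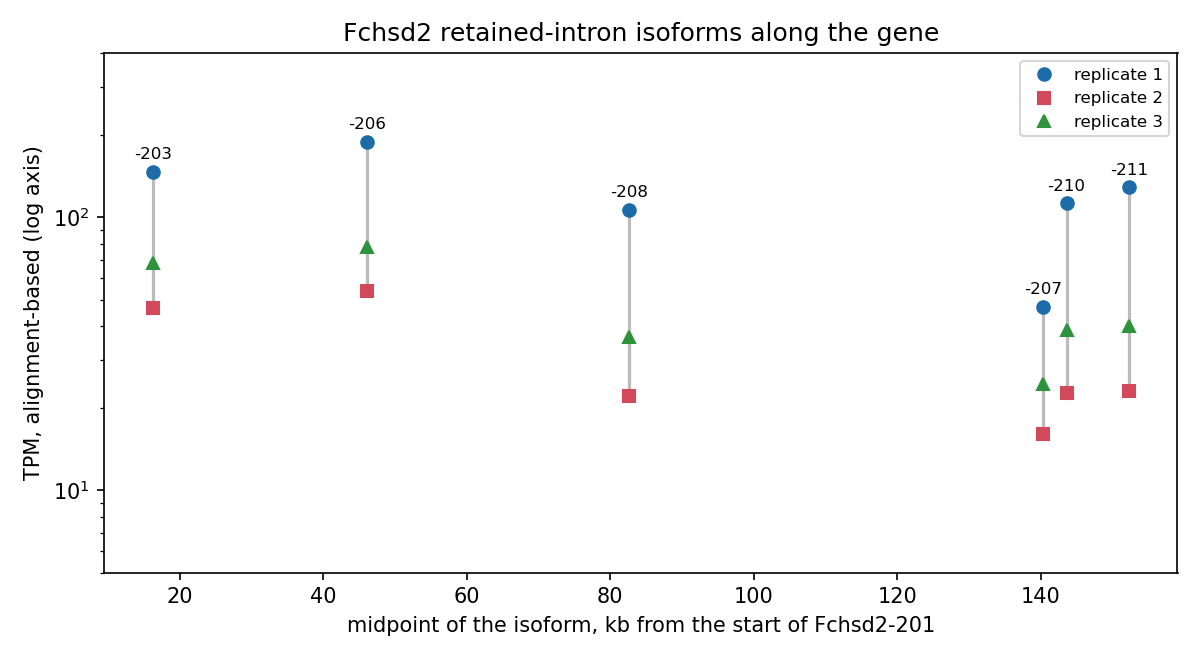
Alignment-based TPM (log axis) of the 6 retained-intron isoforms of Fchsd2 against the distance of their midpoint from the start of Fchsd2-201 in kb, with 1 point for each library. Replicate 1 lay above replicate 3 and replicate 3 above replicate 2 in all 6.

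Other genes overlap 2 of the 3 loci, and no source used here states a strand setting, so their reads may not be separable. Gm40578, annotated as antisense to the 3′ part of Tnfaip2, had 1301, 2851 and 2292 counts, far fewer than Tnfaip2. Atg16l2, on the opposite strand over the 3′ end of Fchsd2, had 3049, 1838 and 1965 counts. The pseudogenes Gm47324, on the same strand within Fchsd2, and Gm6341, on the opposite strand, had 1321, 659 and 908 counts and 420, 203 and 246 counts. No annotated gene overlaps Ahnak.

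The second quantification of each library, made without an alignment file, kept the order of the 3 genes by mean TPM, and Ahnak ranked lower in it. Tnfaip2 had 1819, 1436 and 1816 TPM in the alignment-based table and 2956, 1519 and 2991 TPM in the alignment-free table, where it was first by mean TPM. Ahnak had 629.9, 805.5 and 830.6 TPM in the alignment-based table and 601.3, 471.3 and 602.2 TPM in the alignment-free table, where it ranked 33rd and Fchsd2 13th. Fchsd2 had 1232, 387.8 and 712.1 TPM against 1568, 299.0 and 805.9 TPM. The alignment-based minus the alignment-free value was -0.70, -0.08 and -0.72 log2 units for Tnfaip2, 0.07, 0.77 and 0.46 for Ahnak and -0.35, 0.37 and -0.18 for Fchsd2, on the log2(TPM + 1) scale.

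No member differed more than 2-fold in the same direction in all 3 libraries; of 13427 genes compared, 0.559% were higher and 6.44% lower in the alignment-based table by that rule. The median coding gene itself differed by -0.74, 0.02 and -0.34 log2 units in replicates 1, 2 and 3. Relative to that median, Ahnak lay 0.81, 0.76 and 0.80 log2 units higher in the alignment-based table, at percentiles 98.2, 98.8 and 99.5 of 10513 coding genes, and the values of the 3 libraries were close together. Fchsd2 lay 0.39, 0.36 and 0.16 log2 units higher, and Tnfaip2 was at 0.04, -0.10 and -0.38, on both sides of the median gene.

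In unscaled counts the tables were closer for Ahnak than for the other members. Ahnak had 138287, 372549 and 297152 counts in the alignment-based table and 147756, 433624 and 341002 in the alignment-free table. Tnfaip2 had 40237, 100187 and 99718 against 51170, 135396 and 127971, and Fchsd2 had 35018, 20810 and 28734 against 46760, 29129 and 39878. All coding genes together had 7715311, 10036048 and 9964310 against 12482043, 15836355 and 15368656. The alignment-free table thus held more counts for each member, by a smaller step than for coding genes as a whole. Scaled by the total counts of each table, the alignment-based value was on average 0.62 log2 units higher for Ahnak. It was 0.41 higher for Tnfaip2 and 0.34 higher for Fchsd2, so by scaled counts Ahnak differed the most.

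The isoforms of Tnfaip2 were shared out differently by the tables. Tnfaip2-205 had 797.8, 25.84 and 161.1 TPM in the alignment-based table and 1653, 569.5 and 1457 TPM in the alignment-free table, where it was 55.9%, 37.5% and 48.7% of the gene. Tnfaip2-201 took 32.9 ± 9.44% of the gene's TPM in the alignment-based table and 14.97 ± 3.76% in the alignment-free table. Of 18 member isoforms with a mean share of TPM of at least 5% in either table, 1 (Tnfaip2-201) was more than 10 percentage points higher in the alignment-based table in all 3 libraries and 1 (Tnfaip2-205) more than 10 points lower. Over 40715 isoforms of genes with at least 1 TPM, 9.70% were higher and 11.0% lower by this rule, so 1 of 18 in each direction is no more than the background.

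Fchsd2-201 and Fchsd2-202 were told apart differently by the tables. Fchsd2-201 took 1.14 ± 0.426% of the gene's TPM in the alignment-based table and 5.02 ± 1.06% in the alignment-free table, while Fchsd2-202 took 12.1 ± 2.28% and 5.63 ± 1.96%. Together they took 10.1%, 14.4% and 15.2% against 9.83%, 11.8% and 10.4%. The retained-intron isoforms of Fchsd2 held 49.0 ± 9.70% of TPM in the alignment-based table and 45.4 ± 10.8% in the alignment-free table, with replicate 1 the highest and replicate 3 the lowest in both. Ahnak-202 held 91.3 ± 4.64% and 86.6 ± 5.39%.

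The spread between libraries depended on the scale. After TMM scaling of the counts, Tnfaip2 had 2519, 5535 and 5277 CPM (counts scaled by library size) in replicates 1, 2 and 3, Ahnak had 8657, 20580 and 15720 and Fchsd2 had 2192, 1150 and 1520. Tnfaip2 and Ahnak were lowest in replicate 1, and Fchsd2 was highest there. The SD of these values in log2 units was 0.64, 0.64 and 0.47 for Tnfaip2, Ahnak and Fchsd2, beside a median of 0.33 over coding genes. With the deposited TPM it was 0.20, 0.22 and 0.83, beside a median of 0.37, so the order of the members turned round. Without replicate 1, the SD on the TMM scale was 0.05 for Tnfaip2, 0.27 for Ahnak and 0.28 for Fchsd2, beside a median of 0.15 over coding genes.

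The other genes of the pathways of the 3 members were measured in the same libraries. Their level was log2(TPM + 1) minus the median coding gene of the same library, and limma's treat method asked, for 13434 genes together, whether it lay more than 1 log2 unit from 0, at an adjusted p of 0.05. Of the 13434 genes, 2864 (21.3%) were called above and 2858 (21.3%) below. Without replicate 3, 1571 were below. Of the 10520 coding genes among the 13434, 2533 were called above and 2055 below, with a median level of 0. With a count minimum of 100, which raises the median gene, 1317 of 7399 (17.8%) were above and 784 (10.6%) below. TPM is per length, so levels can be set side by side between genes as far as that length is right. It depends on the isoforms to which reads were given: with the longest coding isoform, Fchsd2 moved from rank 8 to rank 20. In bulk RNA, fewer cells of a type and less RNA in each cell cannot be told apart.

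Of 22 F-BAR protein genes, the family of Fchsd2, 19 passed the count minimum, 12 were called above and 1 below. Their median level was 2.33, against -0.21 over all genes tested and 0 over the coding genes. Gas7, a growth arrest-specific F-BAR protein, was the highest with 550.7, 327.8 and 394.6 TPM (level 6.20 ± 0.18; limma adjusted p = 5.61e-06). Fnbp1l (Toca-1), which activates actin assembly, had 274.2, 56.7 and 98.6 TPM (level 4.36 ± 0.93; limma adjusted p = 0.000265) and Fnbp1 (FBP17) had 131.6, 90.0 and 119.8 TPM (level 4.32 ± 0.04; limma adjusted p = 1.23e-05). Srgap3 was the lowest that passed and was called below, with 0.32, 0.61 and 0.22 TPM (level -2.04 ± 0.43; limma adjusted p = 0.00388). Fchsd1, the paralog of Fchsd2, had 10.7, 12.6 and 10.3 TPM (level 1.10 ± 0.38) and was not called, with a limma adjusted p of 0.541. With a count minimum of 100, 7 of 16 F-BAR genes were called above, and by alignment-free TPM Srgap3 was not called.

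Of 20 genes for clathrin-mediated endocytosis and branched actin, the process in which Fchsd2 acts, 19 passed the minimum, 13 were called above and 1 below, with a median level of 2.52. The Arp2/3 complex genes Actr3 and Actr2 had 110.3 ± 27.5 and 64.9 ± 44.6 TPM (SD, n = 3; levels 4.27 and 3.33; limma adjusted p = 1.68e-05 and 0.000602). Itsn2, an intersectin scaffold of clathrin-coated pits, had 74.1 ± 15.2 TPM (level 3.71; limma adjusted p = 2.56e-05). Cltb, a clathrin light chain, was the lowest that passed, with 1.36, 0.95 and 0.76 TPM (level -1.49 ± 0.24; limma adjusted p = 0.0339). It was not called without replicate 2 or without replicate 3. The actin regulators Wasl (level 1.03) and Was (level -0.77) were not called, with limma adjusted p of 0.734 and 1.

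Of 16 exocyst and nanotube genes, set beside Tnfaip2, 13 passed the minimum and 7 were called above and 0 below, with a median level of 1.64. Exoc4, Exoc5 and Exoc6b, subunits of the exocyst, had 68.5, 40.2 and 39.6 TPM on average (levels 3.61 ± 0.18, 2.64 ± 0.75 and 2.83 ± 0.11; limma adjusted p = 3.42e-05, 0.00231 and 0.000131). Exoc6 was the lowest that passed, at 1.63 TPM (level -1.11; limma adjusted p = 0.446). Exoc3l4, a relative of Tnfaip2 in the Sec6 family, had 19.8, 12.3 and 19.0 TPM (level 1.64 ± 0.13; limma adjusted p = 0.00949). With a count minimum of 100, 2 of 13 were called above and 2 below, so the share called above was no longer over the background of 17.8%. Lst1, a leukocyte membrane protein that acts with M-Sec in nanotube formation, did not pass the count minimum.

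Of 9 genes for binding partners and relatives of AHNAK, 5 passed the minimum and 3 were called above and 0 below, with a median level of 4.05. Ahnak2, the paralog of Ahnak, had 79.1, 162.6 and 130.7 TPM (level 4.41 ± 0.75; limma adjusted p = 0.000121). Its TPM was lowest in replicate 1, as that of Ahnak was. Myof (myoferlin) and Anxa2 (annexin A2) had 101.4 ± 26.9 and 92.9 ± 8.72 TPM (levels 4.15 and 4.05; limma adjusted p = 2.13e-05 and 1.73e-05). S100a10, which forms a complex with annexin A2 and AHNAK, had 25.5, 7.95 and 11.7 TPM (level 1.35 ± 0.59) and was not called, with a limma adjusted p of 0.198. Plcg1 was the lowest that passed, at 3.71 TPM (level -0.27; limma adjusted p = 1). The listed genes that did not pass had at most 0.23 TPM in any library. With no count minimum, 4 of the 9 were called above and 4 below, with a median level of 0.68.

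**Figure D5:**
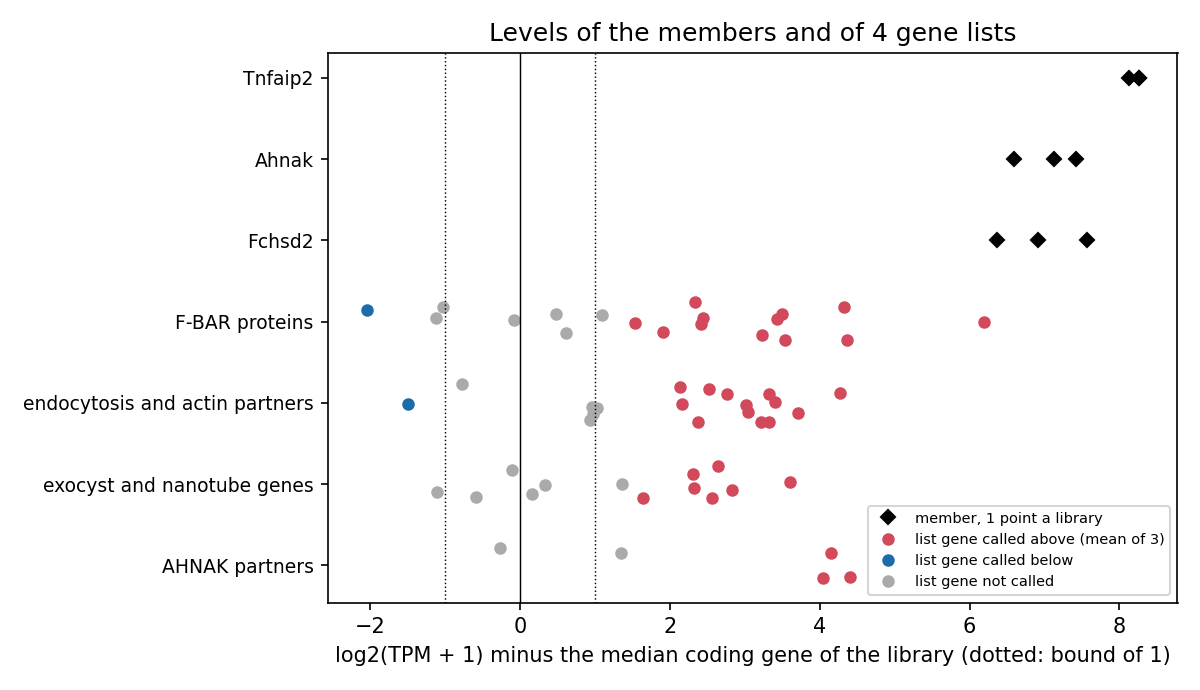
Level (log2(TPM + 1) minus the median coding gene of the library) of the 3 members, 1 point for each library, and of the tested genes of 4 lists, 1 point for each gene as the mean of 3 libraries, coloured by the limma call; dotted lines mark the bound of 1. The members, which were chosen by their TPM, lay between 6.37 and 8.26 in single libraries, and the highest list gene was Gas7 at 6.20.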

How the data were processed

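Chromatin-fraction total RNA-seq of 3 replicates of 1 group was used, with groups and amounts from the labels. The deposited gene and transcript tables give expected counts (estimated counts that need not be whole, not scaled) and TPM, which the authors scaled over all entries of a file, per the file headers, whose column names are those that RSEM writes; the second deposited transcript table, with the column names of kallisto, gives estimated counts and TPM. They are called alignment-based and alignment-free here. The genome is mm10 (GRCm38) with GENCODE M21, per the deposited description files; no source used here gives tool versions, filters or strand settings.

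Alignment-free transcripts were summed to genes by gene ID. The test, on genes whose expected counts averaged 10 or more, was limma 3.58.1 (treat; R 4.3.3), Benjamini-Hochberg over all of them, with a pseudocount of 1, which understates differences of low genes. TMM factors came from edgeR 4.0.16 and alternative size factors from DESeq2 1.42.0, on expected counts rounded to whole numbers. Named were the 3 members and isoforms with a mean share of at least 5%. Of each list, the 3 highest genes, the lowest that passed the count minimum and those called below were named. The 2 genes nearest in level and the gene directly above and below each member were also named. Fchsd1, Exoc3l4, S100a10, Wasl, Was, Lst1 and the single markers were named after their values were seen. Sequences and coordinates came from the M21 transcripts and annotation. The members and the lists were chosen with earlier results of these data known. The code was tested on simulated data. Reads carry no molecular identifiers, so counts are not independent molecules.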

Additional observations from a re-analysis of the deposited data

How the results depend on the processing

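No paired analysis was possible because there is 1 group. The Tnfaip2 level, 8.22, was 8.47 with a pseudocount of 0.1, 9.17 with no count minimum, 7.15 with a minimum of 100, 8.42 against the median of all tested genes, 8.0 with the posterior mean TPM and 8.39 with the length of the longest coding isoform, an alternative chosen after seeing the data. The Ahnak level, 7.05, was 8.0 with no minimum, 5.98 with a minimum of 100, 6.07 in the alignment-free table and 7.80 with the longest isoform; the Fchsd2 level, 6.95, was 7.90 and 5.88 with the first pair. In the alignment-free table Fchsd2 (6.45) thus stood above Ahnak. With no minimum, all genes called above and below were 4930 and 5524, and 3 F-BAR, 2 exocyst and nanotube and 4 AHNAK partner genes were below; with a minimum of 100 they were 1317 and 784, with 7 F-BAR genes above and 0 below, 0 endocytosis and actin genes below, and 2 exocyst and nanotube genes above and 2 below. Fewer or more genes enter the median by construction. By alignment-free TPM, 0 F-BAR and 1 exocyst and nanotube genes were below, and against the median of all genes 0 endocytosis and actin genes. Leaving out 1 library gave 1571 to 3338 genes below, the fewest without replicate 3, and 0 to 1 endocytosis and actin genes below: Cltb lost its call without replicate 2 or 3. The quantifier difference of Tnfaip2 was 0.41 in CPM and -0.02 with TPM rescaled over coding genes, that of Ahnak 0.91 when rescaled, and that of Fchsd2 0.34 and 0.43; the cause of these changes was not tested. In the alignment-free table the Tnfaip2 retained-intron share was 27.1%, Tnfaip2-205 47.4% and Ahnak-202 86.6%; by counts Ahnak-202 was 98.9%. Of 162 alternative values of these results, 123 stayed within the replicate spread or 1.5 times a count. A wide spread lets large moves pass by this rule. The Tnfaip2-205 share, 18.2 ± 22.5% of TPM, was 1.98% by counts and 5.34% without replicate 1, and both values passed. The members were chosen by high TPM, so the unchanged sign of their levels is no check. The uncalled quantifier differences of Tnfaip2 (-0.50) and Fchsd2 (-0.05) changed sign. Depth was lowest in replicate 1.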
